A study of Mus musculus with 6 samples.

Results

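The nuclear-encoded respiratory chain genes are the genes of the cell nucleus that code for subunits of complexes I to V of the inner mitochondrial membrane. They were taken by symbol from the protein-coding genes of GENCODE M21 (mouse build GRCm38): the Ndufa, Ndufb, Ndufc, Ndufs and Ndufv genes for complex I, Sdha to Sdhd for complex II, the Uqcr genes for complex III, the Cox4i, Cox5, Cox6, Cox7 and Cox8 genes for complex IV and the Atp5 genes for complex V, without the assembly factors. Of 86 such identifiers, 85 had a row among the 47643 genes counted. They were 38 genes of complex I, 4 of complex II, 8 of complex III, 18 of complex IV and 17 of complex V. The identifier without a row was a second one for Atp5o. The symbol rule leaves out cytochrome c1 (Cyc1), a subunit of complex III, whose values are given with the other genes of the pathway. The cells were sorted as CD45-EPCAM+ from 6 tumors of FVB/N mice with the MMTV-PyMT transgene. There the MMTV promoter drives the polyoma middle T antigen in the mammary epithelium. The 6 tumors form 1 group: each had been treated with the VEGF-neutralizing antibody B20-4.1.1, given into the peritoneum at 5 mg/kg and 2 times per week for 6 weeks from 7 weeks of age. The labels do not give the hypoxia class of a tumor, so no classes were compared, and every value is given per tumor or as a range over the 6 tumors.

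The respiratory chain passes electrons from NADH (complex I) and succinate (complex II) through ubiquinone to complex III, and from there through cytochrome c to complex IV, which reduces oxygen to water. Complexes I, III and IV pump protons as they do so, and complex V, the ATP synthase, uses the proton gradient to make ATP. Most subunits are encoded in the nucleus and imported, while a small set of core subunits of complexes I, III, IV and V is encoded by the mitochondrial genome. Low oxygen is known to lower electron flow through the chain and to change the use of some subunit isoforms, and the study treated tumors in a way that changes their oxygen supply.

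The promoters of these nuclear genes are known to share binding motifs of a few transcription factors. Promoter sequences of RefSeq (GRCm38.p6, 250 bases before to 50 bases after the start) were matched to 69 of the 85 members by symbol. Each motif was searched on both strands as exact letters. A gene with several promoter entries was counted where any of them held the letters. The NRF1 letters GCGCATGCG were found in 8 members (11.6%), against 2.61% of 17491 genes. The YY1 letters AAGATGGCG were found in 7 members (10.1%), against 2.14% of all genes. The ETS letters CCGGAAG, which GABP binds, were found in 16 members (23.2%), against 12.9% of all genes. The ERR letters TCAAGGTCA were found in 2 members, Sdhd and Atp5g3 (2.90%), against 0.377% of all genes. ACGTG, the core letters of the hypoxia response element, were found in 18 members (26.1%), against 23.2% of all genes. A match describes these letters and is not a binding site.

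One promoter per complex with such letters is shown, and a second one for complex V, since these genes carry the patterns described below. Capitals mark the letters of NRF1, ETS, YY1 and ERR on either strand. Atp5j has a second promoter entry, at chr16:84835576-84835875, which holds none of these letters and is not shown. The NRF1 letters nearly read the same on both strands, so that a pair of overlapping matches appears as a single run of capitals. Ndufa11 (complex I) is at chr17:56717512-56717811 (plus strand) and has NRF1 letters, Sdhd (complex II) at chr9:50603800-50604099 (minus strand) has ETS and ERR letters, Uqcrc1 (complex III) at chr9:108936398-108936697 (plus strand) has NRF1 letters, Cox6a1 (complex IV) at chr5:115348909-115349208 (minus strand) and Atp5k (complex V) at chr5:108434350-108434649 (minus strand) have both NRF1 and ETS letters, and Atp5j (complex V) at chr16:84834927-84835226 (minus strand) has YY1 and ETS letters.
Ndufa11: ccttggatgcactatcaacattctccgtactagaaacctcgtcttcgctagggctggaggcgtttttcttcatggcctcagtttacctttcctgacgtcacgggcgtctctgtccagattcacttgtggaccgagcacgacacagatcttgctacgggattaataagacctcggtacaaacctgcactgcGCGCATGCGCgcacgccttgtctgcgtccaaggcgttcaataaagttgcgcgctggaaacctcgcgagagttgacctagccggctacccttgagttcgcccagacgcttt
Sdhd: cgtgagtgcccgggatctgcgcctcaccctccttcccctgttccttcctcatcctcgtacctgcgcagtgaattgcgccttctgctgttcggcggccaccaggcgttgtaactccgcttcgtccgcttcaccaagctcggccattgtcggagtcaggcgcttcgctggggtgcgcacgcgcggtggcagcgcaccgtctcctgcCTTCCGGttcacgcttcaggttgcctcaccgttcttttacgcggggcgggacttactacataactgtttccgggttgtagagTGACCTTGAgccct
Uqcrc1: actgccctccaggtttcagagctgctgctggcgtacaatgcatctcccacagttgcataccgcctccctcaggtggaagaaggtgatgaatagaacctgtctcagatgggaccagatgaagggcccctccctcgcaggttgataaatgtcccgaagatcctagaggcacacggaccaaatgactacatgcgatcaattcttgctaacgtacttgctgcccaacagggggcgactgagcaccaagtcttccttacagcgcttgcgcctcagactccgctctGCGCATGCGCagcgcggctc
Cox6a1: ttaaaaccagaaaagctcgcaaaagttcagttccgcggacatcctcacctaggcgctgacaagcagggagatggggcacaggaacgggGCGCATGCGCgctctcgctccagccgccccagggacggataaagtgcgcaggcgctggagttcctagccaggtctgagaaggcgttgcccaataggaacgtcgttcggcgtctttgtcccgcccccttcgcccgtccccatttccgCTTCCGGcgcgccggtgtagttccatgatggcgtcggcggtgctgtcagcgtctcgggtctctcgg
Atp5k: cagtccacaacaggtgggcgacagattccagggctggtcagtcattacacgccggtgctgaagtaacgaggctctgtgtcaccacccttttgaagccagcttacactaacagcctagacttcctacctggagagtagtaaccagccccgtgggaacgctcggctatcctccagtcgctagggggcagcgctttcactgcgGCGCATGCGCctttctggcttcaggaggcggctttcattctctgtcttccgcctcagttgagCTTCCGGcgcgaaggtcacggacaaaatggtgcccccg
Atp5j: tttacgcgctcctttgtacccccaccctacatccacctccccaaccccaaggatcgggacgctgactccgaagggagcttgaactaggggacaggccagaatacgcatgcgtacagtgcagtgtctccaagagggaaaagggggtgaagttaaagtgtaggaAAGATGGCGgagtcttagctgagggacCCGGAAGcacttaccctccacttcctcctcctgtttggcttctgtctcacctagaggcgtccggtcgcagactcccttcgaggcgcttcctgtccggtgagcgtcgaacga

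The 6 libraries held 2509482 to 5893246 counts on genes. A floor of 3 counts corresponded to 0.509 to 1.20 CPM (CPM is the count scaled to 1000000 counts on genes), and intervals and floors cover counting error only. Of the 85 members, 84 had a count in some tumor and 76 passed the filter on low counts, as did 12088 genes in all. Marker genes were checked against the sort. The 7 luminal epithelial genes summed to 3957 to 4874 CPM, while the 3 endothelial genes summed to at most 3.88 CPM and the 3 fibroblast genes to at most 18.2 CPM. The 7 immune genes were highest in tumor 3 with a sum of 215 CPM, against 15.3 to 48.5 CPM in the other 5. The 3 erythroid genes were also highest in tumor 3, with 767 CPM against 4.04 to 60.1 CPM, and the 5 basal epithelial genes were highest in tumor 5, with 501 CPM against 130.5 to 286 CPM. The part of these in the levels of the members was not tested. The 2 adipocyte genes were under the floor in every tumor. Tumor 1 differed from the rest in its library: it had 16.1% of reads on no gene, against 21.2 to 41.4% in the others, and 90.3% of its gene counts lay on nuclear protein-coding genes, against 75.7 to 80.7%. The nuclear RNA Malat1 was at 129.6 CPM in tumor 1, against 6192 to 15222 CPM elsewhere, and the mitochondrial ribosomal RNA mt-Rnr2 at 1445 CPM against 12566 to 33656 CPM. Results that rest on tumor 1 are therefore given with and without it.

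Together the 85 members took 17274, 7630, 11597, 9245, 11627 and 11117 CPM in tumors 1 to 6. Tumor 1 was the highest at 1.73% of its counts on genes and tumor 2 the lowest at 0.763%, a 2.26-fold range, and 4 of the 6 tumors lay within 9245 and 11627 CPM. The 95% Wilson interval of tumor 1 (17169 to 17380 CPM) and that of tumor 2 (7523 to 7739 CPM) show that counting error is small beside the spread between tumors. Without tumor 1 the range was 1.52-fold, from 7630 to 11627 CPM with a median of 11117 CPM, and tumor 2 was still the lowest. In sorted bulk cells, fewer cells with high levels and less RNA of these genes per cell cannot be told apart.

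**Figure D1:**
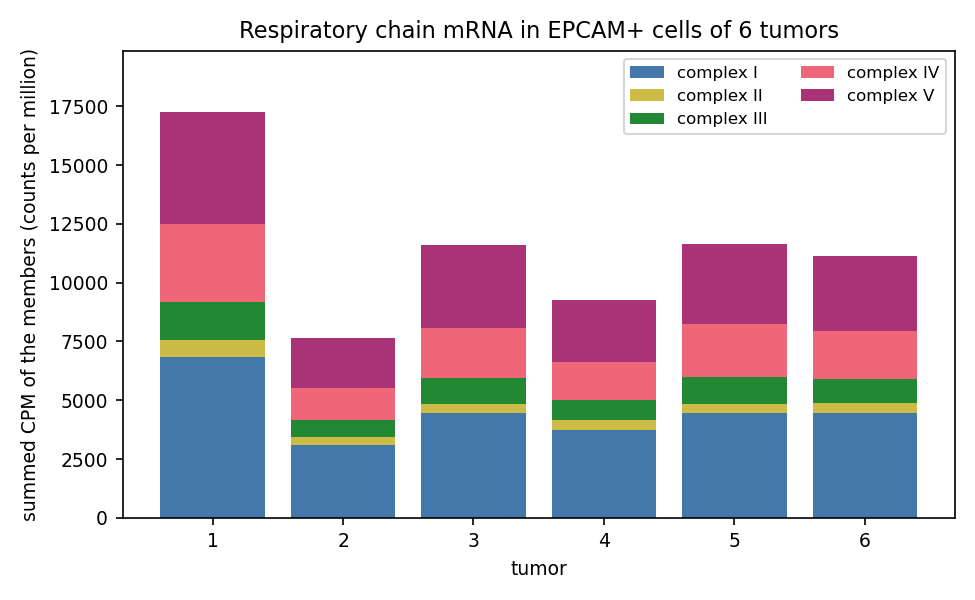
Stacked bars give the summed CPM of the members of complexes I to V (y axis) in each of the 6 tumors (x axis). Tumor 1 reaches 17274 CPM and tumor 2 7630 CPM, and the complexes take nearly the same share of every bar.

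Each complex gave the same order at its ends, with tumor 1 highest and tumor 2 lowest. Complex I, the largest, summed to 6852, 3101, 4440, 3731, 4450 and 4462 CPM in tumors 1 to 6. Complex II summed to 701, 334, 421, 423, 395 and 401 CPM, complex III to 1632, 714, 1095, 851, 1158 and 1055 CPM, complex IV to 3313, 1386, 2120, 1638, 2226 and 2025 CPM and complex V to 4777, 2096, 3521, 2602, 3398 and 3174 CPM. The range over tumors was close to that of the whole chain in every complex, from 2.10-fold in complex II to 2.39-fold in complex IV. Without tumor 1 it was 1.44-fold in complex I, 1.27-fold in complex II, 1.62-fold in complex III, 1.61-fold in complex IV and 1.68-fold in complex V.

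The shares of the complexes in the total varied less than the total itself. This holds for sums by complex and not for single members. Among members that passed the filter, tumor 1 was at 0.17-fold (Atp5j) to 3.91-fold (Cox7a1) of the median of the other tumors. Complex I gave 38.3 to 40.6% of the members' counts, complex II 3.39 to 4.57%, complex III 9.21 to 9.96%, complex IV 17.7 to 19.2% and complex V 27.5 to 30.4%. Complex V varied the most in percentage points, from 27.5% in tumor 2 to 30.4% in tumor 3. Complex II varied the most in proportion, and was highest at 4.57% (95% interval 4.38 to 4.77%) in tumor 4 and lowest at 3.39% (3.25 to 3.55%) in tumor 5. These are shares of 3′ counts and not of protein or of assembled complex.

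In complex I, the core subunits that oxidize NADH and carry electrons to ubiquinone did not share 1 pattern. Ndufv1 (chromosome 19, 4007384 to 4012806, GRCm38), which binds NADH and the flavin, was at 271, 72.9, 79.8, 65.9, 83.5 and 73 CPM in tumors 1 to 6. It was 3.71-fold higher in tumor 1 than the median of the other tumors, which lay close together. Ndufv2, its iron-sulfur partner, was at 83, 53.4, 66.9, 66.6, 97.4 and 86.5 CPM in tumors 1 to 6, so that tumor 1 lay inside the range of the others and tumor 5 was the highest. G and C made up 55.7% of the last 300 bases of the Ndufv1 transcript and 32.0% of those of Ndufv2. The part of this in their levels was not tested. Ndufs1, the large iron-sulfur subunit, lay from 106 to 182 CPM (median 133), highest in tumor 1 and lowest in tumor 6.

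The core subunits next to the ubiquinone site differed in the same way. Ndufs7 was at 148, 59.4, 54.1, 40.2, 39.9 and 51.3 CPM in tumors 1 to 6, with tumor 1 apart from the other 5. Ndufs3 lay from 19.4 to 56.7 CPM (median 27.4), highest in tumor 1. Ndufs8, an iron-sulfur subunit, was at 66.5, 46.2, 70.1, 53.4, 68.9 and 65.2 CPM in tumors 1 to 6, lowest in tumor 2 and highest in tumor 3, with tumor 1 inside the range. Here the last 300 bases were alike in G and C, at 56.0% in Ndufs7 and 54.3% in Ndufs8. A level of Ndufs3 is uncertain, since 53.0% of the windows of 50 bases in the last 300 bases of its transcript also occur in a pseudogene, and reads that map to several places were not counted.

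Among the accessory subunits, Ndufa6 (from 223 to 516 CPM, median 355) and Ndufv3 (from 159.8 to 515 CPM, median 316) had the highest median levels of the complex. These are counts of 3′ ends, not divided by transcript length. Accessory subunits with tumor 1 far above the other tumors were Ndufa11 (230.3 CPM in tumor 1, against 81.2 to 96.8 CPM elsewhere), Ndufa12 (169 CPM in tumor 1, against 47 to 74.1 CPM elsewhere) and Ndufb8 (593 CPM in tumor 1, against 187 to 299 CPM elsewhere). The same pattern was seen in Ndufa2 (502 CPM in tumor 1, against 234 to 281 CPM elsewhere), Ndufa5 (465 CPM in tumor 1, against 181 to 259 CPM elsewhere), Ndufc1 (479 CPM in tumor 1, against 154 to 253 CPM elsewhere) and Ndufs6 (231 CPM in tumor 1, against 74.9 to 125 CPM elsewhere). The last 300 bases of Ndufb8 overlap an exon of another gene, Gm20538, on the same strand by 42.3%, where reads cannot be given to either gene.

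Some accessory subunits went the other way. Ndufa10 was at 38.3, 107, 114, 112, 125 and 119 CPM in tumors 1 to 6, low in tumor 1 and nearly level in the other 5. Ndufa1 was at 8.14, 10.8, 28.4, 18.1, 45.3 and 34.8 CPM in tumors 1 to 6 and Ndufb3 at 44.6, 30.7, 125, 72.1, 157 and 127 CPM in tumors 1 to 6. Both were low in tumors 1 and 2 and highest in tumor 5, and with Ndufv1 they were among the 5 members whose edgeR dispersion was largest relative to its trend. Ndufb2 lay from 69.98 to 120.3 CPM (median 86.1), highest in tumor 1 and lowest in tumor 4. Ndufs5 was listed at no more than 0.485 CPM, at or under the floor of 3 counts in every tumor. Here 54.6% of its windows occur in a pseudogene, so its low count cannot be read as a low level.

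In complex II, which also belongs to the tricarboxylic acid cycle, the catalytic subunits were higher in tumor 1. Sdha, the flavoprotein that oxidizes succinate, was at 308, 183, 235, 240.4, 199 and 173 CPM in tumors 1 to 6. Sdhb, the iron-sulfur subunit, was at 363, 128, 136, 141, 137 and 165 CPM in tumors 1 to 6. Tumor 1 was above the others in both, with a wide gap for Sdhb and a smaller one for Sdha.

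The membrane anchors of complex II behaved differently. Sdhc was at 29.4, 22.7, 50.2, 39.99, 51.9 and 60.1 CPM in tumors 1 to 6, low in tumors 1 and 2 and highest in tumor 6. Sdhd (chromosome 9, 50596357 to 50603812) was at 0.509, 0.398, 0.485, 0.851, 6.99 and 3.90 CPM in tumors 1 to 6 and did not pass the filter on low counts. Its counts were 1 to 4 in tumors 1 to 4, 35 in tumor 5 and 20 in tumor 6. None of the windows of its annotated 3′ end occurs in another gene. Whether Sdhd transcripts end elsewhere in these cells was not tested.

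In complex III, the 8 members all passed the filter. Uqcrc1, the core protein 1, was at 218, 98.4, 107, 90.8, 101 and 99 CPM in tumors 1 to 6, with tumor 1 apart from the other 5, which lay close together. Uqcrc2, the core protein 2, was at 90.4, 84.5, 123, 132, 176 and 154 CPM in tumors 1 to 6, lowest in tumors 1 and 2 and highest in tumor 5. The paired core proteins thus had opposite places for tumor 1. G and C made up 59.7% of the last 300 bases of the Uqcrc1 transcript and 33.0% of those of Uqcrc2. The part of this in their levels was not tested. All of the annotated 3′ end of Uqcrc2 overlaps exons of Pdzd9 on the opposite strand, and whether counting used the strand is not known. The same limit holds for other members with such overlap. These include Cox5a (89.7%, Gm26631), Ndufb6 (85.7%, Smim27), Ndufb2 (48.7%, Braf), Cox6a2 (23.3%, Itgad) and Ndufa2 (22%, Tmco6).

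The Rieske iron-sulfur protein, Uqcrfs1, was at 139.7, 53.4, 149, 102, 142 and 133 CPM in tumors 1 to 6, low only in tumor 2. Uqcrh, the hinge protein, was at 446 CPM in tumor 1, against 195 to 249.8 CPM elsewhere, and Uqcr10 at 359 CPM in tumor 1, against 111 to 205 CPM elsewhere. These had the highest median levels of the complex. The lowest medians were those of Uqcr11 (117 CPM in tumor 1, against 43.8 to 69.1 CPM elsewhere) and Uqcrb (from 53 to 116 CPM, median 86.2), of which Uqcrb shares 40.6% of its windows with 4 pseudogenes.

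In complex IV, the larger nuclear subunits again parted. Cox4i1, the largest of them, was at 556, 159, 228, 169, 215 and 228 CPM in tumors 1 to 6, with tumor 1 apart. Cox5a was at 139.8, 64.6, 113, 90.2, 142 and 103 CPM in tumors 1 to 6 and Cox5b at 41.9, 26.3, 70.1, 42.3, 65.1 and 54.3 CPM in tumors 1 to 6. Both were lowest in tumor 2, and neither was highest in tumor 1. The highest medians of the complex were those of Cox6c (593 CPM in tumor 1, against 286 to 375 CPM elsewhere) and Cox7a2 (665 CPM in tumor 1, against 193 to 293 CPM elsewhere). Cox7a2l, a relative of Cox7a2 that takes part in joining complexes III and IV, was at 238 CPM in tumor 1, against 67.4 to 91.6 CPM elsewhere, and Cox6a1 at 419 CPM in tumor 1, against 187 to 241 CPM elsewhere. In Cox7c, tumor 1 was low: it was at 63.6, 55, 130.5, 58.7, 182 and 138 CPM in tumors 1 to 6, and 99.2% of its windows occur in 3 pseudogenes.

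In complex V, the subunits of the catalytic head were among the more even members. Atp5a1, the alpha subunit, was at 504, 259, 439.6, 371, 414 and 386 CPM in tumors 1 to 6. Atp5b, the beta subunit that forms the catalytic sites, was at 229, 174, 279.8, 198, 255 and 203 CPM in tumors 1 to 6. Tumor 2 was the lowest in both, and the range of Atp5b was only 1.61-fold, with tumor 1 inside it. Atp5c1, the gamma subunit of the central stalk, was at 43.3, 75.7, 117, 58.9, 92.8 and 98.6 CPM in tumors 1 to 6, lowest in tumor 1. Atp5d, the delta subunit of the same stalk, was at 339, 112, 150.1, 85.3, 115 and 127 CPM in tumors 1 to 6, with tumor 1 far above the rest.

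The peripheral stalk and the membrane part of complex V showed both extremes. Atp5o (chromosome 16, 91925214 to 91931687), the subunit that holds the stalk to the head, was at 918, 198, 334, 291, 322 and 312 CPM in tumors 1 to 6, the highest value of any member in any tumor. Its last 300 bases share 29.1% of their windows with a pseudogene and overlap the second Atp5o identifier by 11.7%. Atp5j (chromosome 16, 84827866 to 84835625), coupling factor 6 of the same stalk, was at 13.2, 22.3, 96.8, 33.2, 78.3 and 82.6 CPM in tumors 1 to 6, with tumors 1, 2 and 4 low and tumors 3, 5 and 6 high. It had the largest dispersion relative to the trend of all 76 members (2.77 times). Tumor 1 was apart in the small membrane subunits Atp5j2 (723 CPM in tumor 1, against 243 to 324 CPM elsewhere), Atp5k (630.0 CPM in tumor 1, against 239.5 to 359 CPM elsewhere) and Atp5mpl (452 CPM in tumor 1, against 139 to 209 CPM elsewhere). Atp5l, another small membrane subunit, was at only 2.20 to 4.24 CPM, and 70.1% of its windows occur in 11 pseudogenes.

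**Figure D2:**
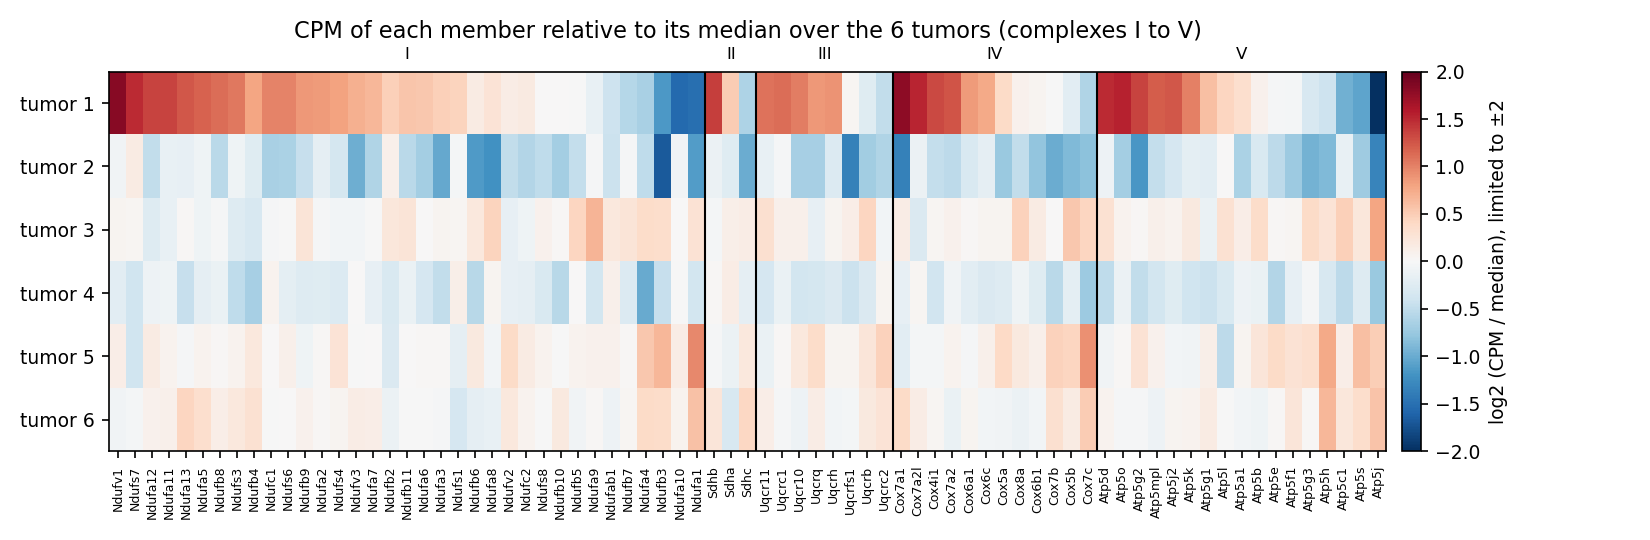
The heat map shows log2 of the CPM of 75 of the 76 members that passed the filter (columns, by complex and by tumor 1 against the others) relative to its own median over the 6 tumors (rows), with color limited to ±2. The row of tumor 1 runs from red to blue within every complex, and that of tumor 2 is blue for most members.

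Across the 76 members that passed the filter, 45 (59.2%) were highest in tumor 1, where 34.2% of the 12088 genes tested were. This held for 23 of 36 members of complex I, 2 of 3 of complex II, 5 of 8 of complex III, 6 of 12 of complex IV and 9 of 17 of complex V. On the log2 scale of CPM + 1, tumor 1 differed from the median of the other tumors by 0.58 in the median member and by 0.08 in the median gene. Among 2018 genes with a mean level inside the middle range of the members (73.2 to 221 CPM), the median was 0.17 and 40.8% were highest in tumor 1. Only 6 members (7.89%) were lowest in tumor 1, against 28.8% of all genes. These were Ndufa1, Ndufa10, Ndufb7, Atp5c1, Atp5j and Atp5s. With CPM taken over nuclear protein-coding genes, which moves the median of all genes in tumor 1 from 0.08 to -0.10, the median member was at 0.37 and 43 members were highest in tumor 1, against 26.5% of genes.

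A tumor stood apart by Dixon's gap over range (95% critical value for 6 values) in 28 of the 76 members (36.8%), against 16.3% of all genes tested. In 26 of the 28 this was tumor 1 on the high side (34.2% of members, against 10.6% of genes). The exceptions were Ndufa10, low in tumor 1, and Ndufa9, high in tumor 3. The widest gaps belonged to Ndufv1 (0.915), Ndufa11 (0.895), Uqcrc1 (0.871) and Cox7a2l (0.858).

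Members that were high in tumor 1 also had 3′ ends richer in G and C. The last 300 bases of the transcripts had a median G+C of 49.3% (34.0 to 59.7%) in the 45 members highest in tumor 1 and of 39.7% (29.3 to 57.7%) in the other 31. Across the 76 members, Spearman's rho between the G+C of the 3′ end and the log2 difference of tumor 1 from the other tumors was 0.59 and Pearson's r was 0.53. Across 11104 protein-coding genes tested, rho was 0.46 and r was 0.43. As a set the members also had 3′ ends richer in G and C, with a median of 47.0%, against 42.3% over the genes tested. Genes are not independent replicates, and all points share the same 6 libraries, so that no p is given. The part of base composition in the levels of tumor 1, and that of its low Malat1 and mt-Rnr2, was not tested.

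**Figure D3:**
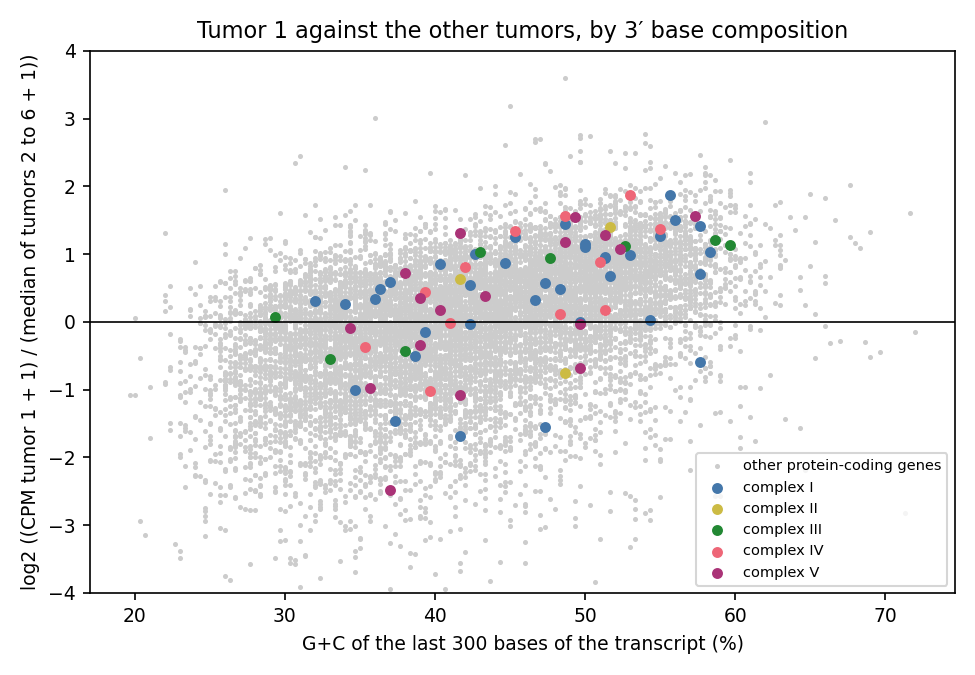
Each point is a protein-coding gene, with the G+C percentage of the last 300 bases of its transcript on the x axis and log2 of its CPM + 1 in tumor 1 over the median of tumors 2 to 6 on the y axis (colored by complex for members, gray for other genes, with 11 genes beyond the axis). Members lie along the upward slope of the gray cloud, mostly above 0.

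Other sets of genes give the scale of this pattern. Of 73 genes of mitochondrial ribosomal proteins tested, 49 (67.1%) were highest in tumor 1, with a median log2 difference of 0.48. Of 92 genes of cytosolic ribosomal proteins, 38 (41.3%) were, with a median of 0.20. Of 13 genes of the tricarboxylic acid cycle, 5 (38.5%) were, with a median of -0.03. The respiratory chain thus lay near the mitochondrial ribosome and above the other sets, and these differences between lists were not tested.

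The low place of tumor 2 did not rest on tumor 1. Of the 76 members, 47 (61.8%) were lowest in tumor 2, against 24.6% of all genes. Without tumor 1, 51 (67.1%) were, against 31.9% of genes. Cytosolic (54 of 92) and mitochondrial (42 of 73) ribosomal protein genes were also often lowest in tumor 2. Tumor 2 had the shallowest library, the largest share of reads on no gene (41.4%) and the lowest hypoxia score (37.2 TPM), and the part of each in this was not tested. Without tumor 1, only Ndufc1 and Ndufv3, 2 members, had a tumor past the critical value for 5 values (2.63%, against 7.03% of genes), each with tumor 2 on the low side, and the median member ranged 1.70-fold over the 5 tumors, against 2.66-fold over 6. No tumor was then the highest for most members. There were 31 highest in tumor 3 (40.8%, against 26.6% of genes), 24 in tumor 5 (31.6%, against 25%), 17 in tumor 6 (22.4%, against 9.16%), 3 in tumor 4 (3.95%, against 16.5%) and 1 in tumor 2 (1.32%, against 22.7%).

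Paralogs of several complex IV, complex V and complex I subunits are known for use in particular tissues or under low oxygen. In these cells the widely used form took nearly all counts in the families of Cox4i, Cox6a, Cox6b, Cox7b, Cox8 and Ndufa4. Cox4i2, the form of subunit 4 known from lung and from low oxygen, had 2 counts in all, both in tumor 1, against 7654 for Cox4i1. Cox6a2, the heart and muscle form, had 2 counts in all, against 7230 for Cox6a1. Ndufa4l2, a gene known to be induced by HIF-1, had 3 counts in all, against 1406 for Ndufa4 (33.1, 36.7, 67.2, 25.7, 75.1 and 67.4 CPM in tumors 1 to 6), so that Ndufa4 took 98.4 to 100% of the pair. Ndufa4 was named for complex I and is now placed in complex IV, and with the pair moved there the median sums were 4374 CPM for complex I and 2140 CPM for complex IV, against 4445 and 2072 CPM. Cox7b2, known from testis, had no count, which allows at most 0.509 to 1.20 CPM per tumor at a floor of 3 counts, while Cox7b lay from 93.6 to 255 CPM (median 185).

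Other minor forms were counted but low. Cox6b2, known from testis, was at 3.39, 1.20, 1.21, 0.851, 4.59 and 0.781 CPM in tumors 1 to 6, which is 0.344 to 1.79% of its pair with Cox6b1 (from 137 to 265 CPM, median 235). Cox8b, the muscle form, was at 5.09, 0.797, 2.18, 0.638, 0.200 and 1.76 CPM in tumors 1 to 6, Cox8c had a single count, and Cox8a (from 78.1 to 152 CPM, median 110.2) took 95.8 to 99.8% of the family. Cox7a1, the heart and muscle form of subunit 7a, was at 42.4, 4.78, 13.6, 10.8, 10.6 and 16 CPM in tumors 1 to 6, so that tumor 1 was 3.91-fold above the median of the other tumors. Its share of the family was 1.75 to 4.49%, beside 70.2 to 78.3% for Cox7a2 and 18 to 27.8% for Cox7a2l. The 4 muscle marker genes (Ckm, Acta1, Myh4 and Mb) summed to 20.02 CPM in tumor 1, against 11.2 to 14.8 CPM elsewhere, with 1 of them at or under the floor everywhere, and their part in the level of Cox7a1 was not tested.

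Subunit c of complex V, the ring that turns with the flow of protons, is encoded by several genes with the same mature protein. Atp5g3 was at 436, 283, 712, 539, 687 and 552 CPM in tumors 1 to 6, Atp5g1 at 127, 72.5, 77.1, 62.5, 91.2 and 93.9 CPM in tumors 1 to 6 and Atp5g2 at 9.16, 1.59, 3.64, 2.55, 4.39 and 3.51 CPM in tumors 1 to 6. Atp5g3 was the highest median of any member and took 76.2 to 89.8% of the family, with its lowest share in tumor 1, where Atp5g1 took 22.2% (95% Wilson interval 20.9 to 23.7%). Its share in the other tumors was 9.72 to 20.3%. Since 98.4% of the windows of Atp5g2 occur in 2 pseudogenes, its low count cannot be read as a low level. Atp5g1 shares 20.3% of its windows with 26 other genes, a limit that the Wilson interval does not cover, while Atp5g3 shares none. Divided by exon length, the median share was 93.0% for Atp5g3 and 6.25% for Atp5g1. Counts of 3′ ends are not proportional to transcript length, so that the undivided shares are the main ones.

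**Figure D4:**
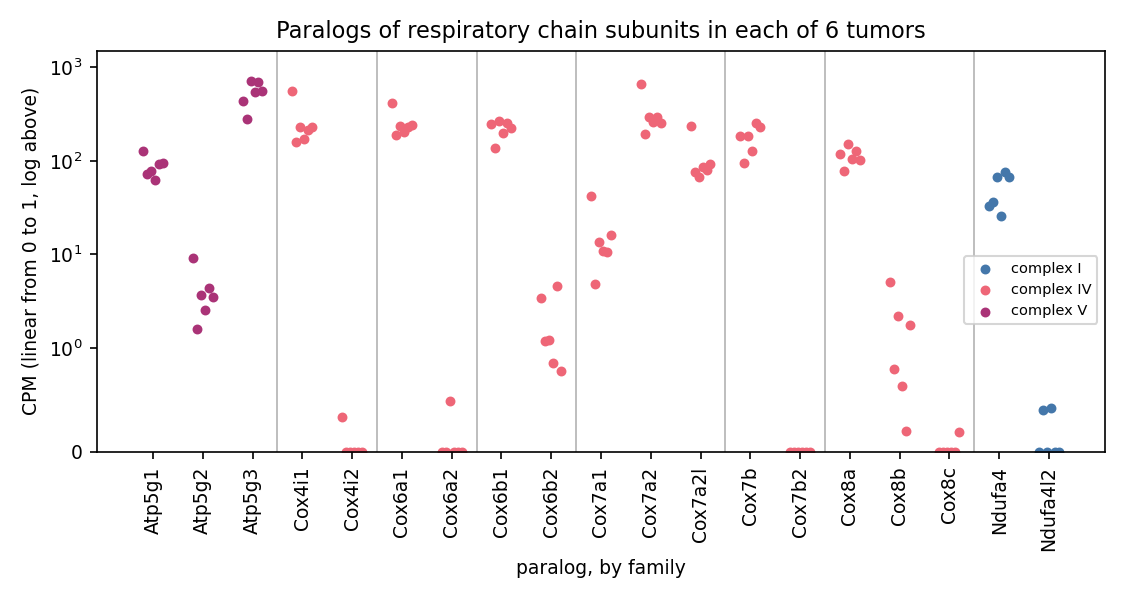
Each point is the CPM of a paralog in 1 tumor (6 points per gene, tumors 1 to 6 from left to right, y axis linear from 0 to 1 CPM and logarithmic above), with gray lines between families. Cox4i2, Cox6a2, Cox7b2, Cox8c and Ndufa4l2 lie below 1 CPM in every tumor, while the widely used form of each family lies between 25.7 and 712 CPM.

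The hypoxia score of each library, the mean TPM of Vegfa, Slc2a1 and Car9, was 48.5, 37.2, 51.4, 76.6, 94.4 and 47.3 in tumors 1 to 6, a 2.54-fold range. None of its genes is a member. Whether members changed with it was tested with the slope of log2 counts on log2 of the score (edgeR's quasi-likelihood test over 12088 genes). None of the 76 members passed an adjusted p of 0.05 (0 called), and the smallest adjusted p was 0.954. Neither did any other gene (0% called), and at an unadjusted p under 0.05 there were 0 members, against 4.24% of all genes (512 genes). DESeq2 called 0 members and 15 genes.

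Slopes were given as log2 units per doubling of the score. They ran from -0.92 to 0.89 and had a median SE of 0.45, and slopes of this size were not detectable with the spread between these 6 tumors. They were above 0 in 33 members (43.4%, against 46.8% of all genes) and below 0 in 43. The median slope was -0.03 over members and -0.04 over all genes. Of the members with a negative slope, those with the smallest p were Ndufs7 at -0.92 ± 0.54 (SE), Ndufb2 at -0.50 ± 0.32 (SE) and Atp5d at -0.68 ± 0.56 (SE). Of those with a positive slope, they were Ndufa1 at 0.89 ± 0.61 (SE), Ndufb3 at 0.89 ± 0.61 (SE) and Uqcrc2 at 0.52 ± 0.37 (SE). In edgeR's test each of these 6 had an adjusted p of 0.954, and the smallest unadjusted p, that of Ndufs7, was 0.121. By complex, the median slope was -0.04 in complex I, -0.02 in complex II, 0.04 in complex III, 0.02 in complex IV and -0.05 in complex V.

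The signs of these slopes depended on single tumors. Without tumor 1, 50 of 76 members had a slope above 0, without tumor 2, 17 did, and without tumor 4, 48 did. Without the 2 tumors farthest from the median score (tumors 4 and 5), 74 members had a slope above 0, over a narrow range of the score. The median slope was then 1.56 over members and 0.15 over all genes. In edgeR's test 1 member had an unadjusted p under 0.05, against 151 of 11382 genes, and 0 members were called. With the identifier prefix as a term (QAF in 4 tumors and QSD in 2 tumors), 30 members had a slope above 0. The median slope was -0.26 over members and 0.007 over all genes. By edgeR, 1 member had an unadjusted p under 0.05, against 523 of 12088 genes, and 0 members were called. The sums by prefix were 9245 to 17274 CPM over tumors 1, 4, 5 and 6, and 7630 and 11597 CPM in tumors 2 and 3.

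**Figure D5:**
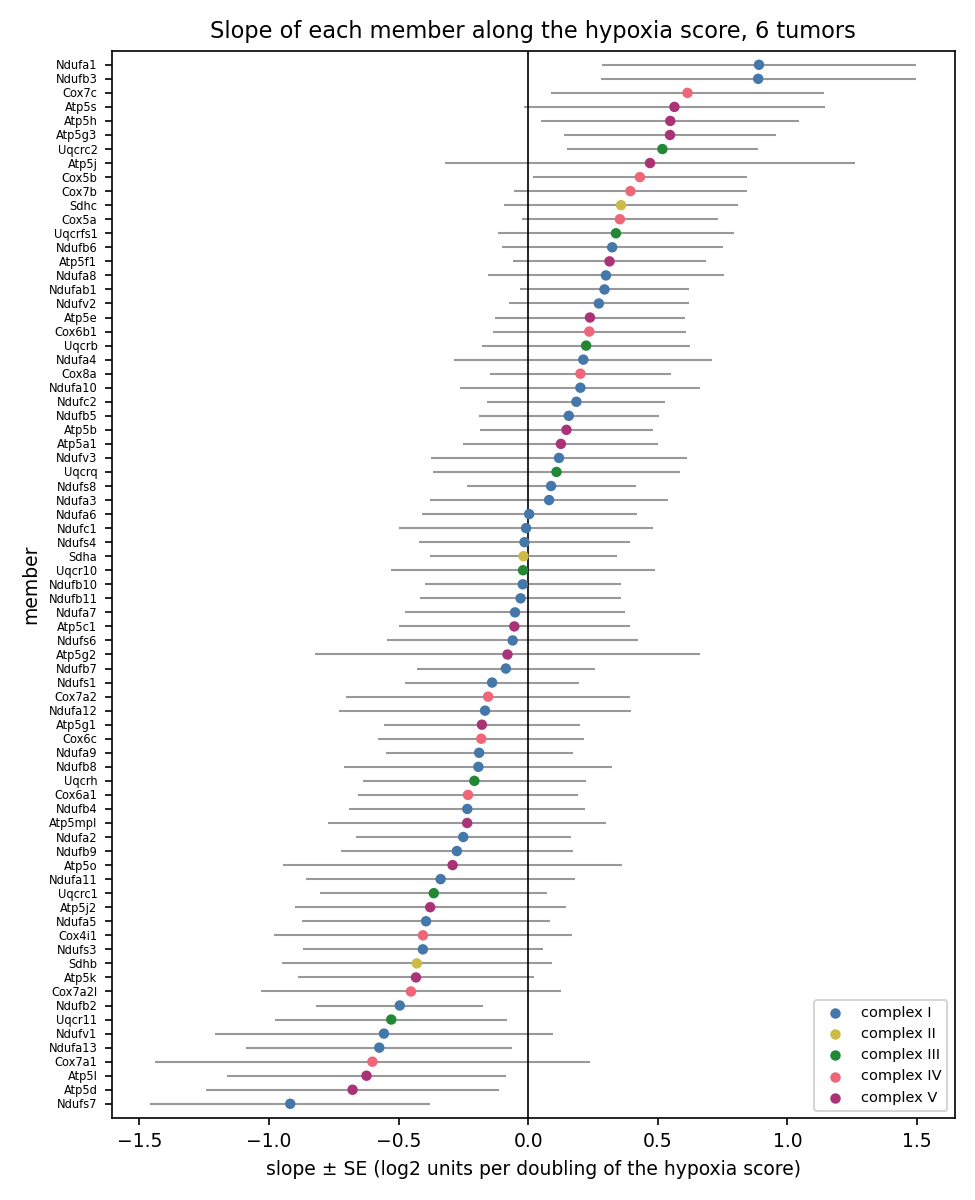
Points give the slope of 75 of the 76 members (y axis) in log2 units per doubling of the hypoxia score (x axis) over the 6 tumors, with bars of ±1 SE and colors by complex. Slopes run from -0.92 (Ndufs7) to 0.89 (Ndufa1), and members of every complex lie on both sides of 0.

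Among the other genes of the pathway, the electron carriers come first. Cyc1, cytochrome c1 of complex III, was at 61.1, 33.5, 58.9, 31.1, 43.3 and 30.7 CPM in tumors 1 to 6, and Cycs, cytochrome c, at 37.3, 13.5, 17.7, 18.5, 19.4 and 17.8 CPM in tumors 1 to 6. Cycs was highest in tumor 1 and lowest in tumor 2, and Cyc1 was highest in tumors 1 and 3. Of 46 genes of assembly factors, which build the complexes and do not stay in them, 43 passed the filter. Of these, 16 (37.2%) were highest in tumor 1, against 34.2% of all genes. Along the score 0 were called by edgeR, with 0 under an unadjusted p of 0.05. A slope above 0 was found in 20 (46.5%, against 46.8% of all genes).

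The regulators of mitochondrial genes did not show the order of the members. Of 12 regulators, 1 was highest in tumor 1 (8.33%, against 34.2% of all genes) and 3 were lowest in tumor 2 (25%, against 24.6%). The median log2 difference of tumor 1 was -0.34. The median G+C of their 3′ ends was 40.7%, against 47.0% in the members, and its part in this was not tested. Along the score, edgeR called 0 of the 12, with 0 under an unadjusted p of 0.05. Ppargc1a, the coactivator PGC-1α, was at 0.848, 3.59, 4.61, 5.32, 2.20 and 1.76 CPM in tumors 1 to 6, and its relative Ppargc1b at 2.88, 30.7, 8.49, 16.8, 10.8 and 12.3 CPM in tumors 1 to 6. Both were lowest in tumor 1, and Ppargc1b was highest in tumor 2, the reverse of the sums of the chain. The levels of Ppargc1a rest on only 5 to 25 counts per tumor. Nrf1 was at 18.8, 37.9, 36.1, 26.4, 23.6 and 17.6 CPM in tumors 1 to 6, Gabpa, which binds the ETS letters, from 15.6 to 30.7 CPM (median 28.1), and Esrra, the receptor ERRα, from 8.77 to 20.1 CPM (median 15.9). Yy1 was lowest in tumor 1, at 65.5, 88.1, 103, 145, 114 and 111 CPM in tumors 1 to 6. Tfam, which packs and transcribes the mitochondrial genome, lay from 26.7 to 66.1 CPM (median 51.8), with a slope of 0.68 ± 0.35 (SE) along the score (edgeR unadjusted p = 0.0843, adjusted p = 0.954).

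Of 9 genes that link pyruvate use, mitochondrial quality and hypoxia, 8 had a slope above 0 along the score (88.9%, against 46.8% of all genes). In edgeR's test 0 of them were called, with 0 at an unadjusted p under 0.05. Pdk1, the kinase that inhibits pyruvate dehydrogenase, was at 82.5, 58.2, 83.4, 97, 85.7 and 52.7 CPM in tumors 1 to 6. Bnip3, a mitophagy receptor and known HIF-1 target, was at 122, 43.4, 37.8, 112, 103 and 47.1 CPM in tumors 1 to 6, high in tumors 1, 4 and 5 and low in tumors 2, 3 and 6. Higd1a, which binds complexes III and IV, lay from 14.7 to 26.8 CPM (median 19), and Lonp1, a mitochondrial protease that degrades a subunit of complex IV, from 62.6 to 88.1 CPM (median 80.7). Atpif1, the inhibitor of complex V, lay from 344 to 562 CPM (median 465). Of 13 genes of the tricarboxylic acid cycle, 10 had a slope above 0 (76.9%, against 46.8% of all genes), with 0 called and 0 at an unadjusted p under 0.05. The differences of these shares from that of all genes were not tested.

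The mRNAs of the mitochondrial genome, which code for the partner subunits of complexes I, III, IV and V, were not highest in tumor 1. Of 13 genes, 7 passed the filter and the other 6 had at most 1 count in any tumor. These 6 were mt-Co2, mt-Co3, mt-Atp6, mt-Atp8, mt-Nd3 and mt-Nd4l, so that no mitochondrial mRNA of complex V passed the filter. Their low counts cannot be read as low levels. The 7 summed to 72372 CPM in tumor 1, below the 81606 to 106155 CPM of the others, and 6 of the 7 were lowest in tumor 1. The exception was mt-Nd4, the largest part of the sum in every tumor. It was at 39624 CPM in tumor 1, against 38190 CPM (tumor 2, its lowest) to 46950 CPM (tumor 3) elsewhere. For complex I, mt-Nd1 was at 15784, 19165, 26846, 19381, 23353 and 19326 CPM in tumors 1 to 6 and mt-Nd2 at 5005, 9492, 10894, 14693, 13322 and 13652 CPM in tumors 1 to 6. For complex III, mt-Cytb was at 8291, 9321, 17235, 11533, 17909 and 14547 CPM in tumors 1 to 6. For complex IV, mt-Co1 was at 1649, 2995, 1912, 2888, 4737 and 3214 CPM in tumors 1 to 6, lowest in tumor 1 and highest in tumor 5. The summed nuclear members came to 23.9% of the summed mitochondrial mRNAs in tumor 1 and to 9.35 to 11.7% in the other 5 tumors. The mitochondrial sum rests on the 7 genes that passed the filter and is not that of the whole mitochondrial genome. The libraries were primed on poly(A), and reads that map to several places were not counted. The part of each in the levels of single mitochondrial genes was not tested.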

How the data were processed

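RNA of sorted CD45-EPCAM+ cells from 6 B20-4.1.1-treated tumors was measured with QuantSeq 3′ FWD libraries, with a molecular identifier of 6 bases. The authors used bbduk for trimming, STAR 2.5 for alignment (GRCm38/mm10) and HTSeq for counting, and deposited raw counts per gene. The annotation release, the strand setting and any collapse by identifiers are not given in the sources used here. The files hold 5 lines that name no gene, with 16.1 to 41.4% of reads, and a count of 0 for reads aligned to several places; these lines were left out.

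The members and lists were chosen with earlier results of these data known. CPM was taken over all genes, summed by complex and compared over tumors by order, range and Dixon's gap. The slope on log2 of the hypoxia score was fitted with edgeR 4.0.16 (R 4.3.3, quasi-likelihood, TMM, a minimum count of 10 in at least 3 libraries and a total of 15) over all genes, with Benjamini-Hochberg adjustment; its p-values measure the spread between these samples. The test was checked on simulated data, but only with slopes larger than those of the members. That check therefore does not cover slopes of the size seen here. DESeq2 1.42.0, other scalings and filters, and each tumor left out were alternatives, and leaving out tumor 1 for Dixon's gap and the lowest tumor was chosen after the data were seen. Symbols came from GENCODE M21, which holds 47224 of the 47643 identifiers, and 3′ ends from its principal transcripts, searched against its other transcripts in windows of 50 bases. TPM used union exon lengths.

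Named were core subunits, paralogs, the 2 highest and 2 lowest medians per complex, the 5 largest relative dispersions, members of at least 50 CPM with a tumor past Dixon's value and the 3 smallest p in each direction, besides a fixed set of other pathway genes. One member of these is not reported here. Others named were chosen after their values were seen. No pair of libraries agreed within counting noise (chi-square per degree of freedom of 19.1 to 120.3).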

Additional observations from a re-analysis of the deposited data

Results flagged for a closer look

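A value was singled out where the gap of the highest or lowest tumor to the nearest other one, divided by the range of the 6 tumors, was above Dixon's 95% critical value for 6 values. Of 6 sums, 2 were: complex I (0.637) and complex II (0.758), with tumor 1 on the high side in both. These are gaps in plain CPM. Under the other scalings the gap of complex I was 0.505 to 0.539, under the critical value, and that of complex II was 0.717 to 0.739, above it. Of the 76 members that passed the filter, 28 were singled out in CPM, and the 24 of these with a mean of at least 50 CPM are given here. Chance flags about 1 in 20 such measures, which is 4.1 of the 82 screened, and 16.3% of all genes tested passed the same value. The members are not independent of one another, since all are measured in the same libraries.

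In 23 of the 24, tumor 1 was the high one. In complex I, the gap was 0.915 for Ndufv1, 0.895 for Ndufa11, 0.825 for Ndufa2, 0.82 for Ndufs7, 0.778 for Ndufa12, 0.726 for Ndufa5, 0.723 for Ndufb8, 0.694 for Ndufc1 and 0.68 for Ndufs6. In complex II, the gap was 0.845 for Sdhb. In complex III, the gap was 0.871 for Uqcrc1, 0.784 for Uqcrh and 0.655 for Uqcr11. In complex IV, the gap was 0.858 for Cox7a2l, 0.825 for Cox4i1, 0.789 for Cox7a2, 0.769 for Cox6a1 and 0.711 for Cox6c. In complex V, the gap was 0.831 for Atp5j2, 0.81 for Atp5o, 0.776 for Atp5mpl, 0.744 for Atp5d and 0.694 for Atp5k. In Ndufa10 the gap was 0.795, with tumor 1 on the low side. Without tumor 1, 2 members of the 76, Ndufc1 and Ndufv3, had a tumor past the critical value for 5 values, both with tumor 2 on the low side. The library of tumor 1 also had the lowest share of reads on no gene (16.1%), the lowest Malat1 (129.6 CPM) and the lowest mt-Rnr2 (1445 CPM) of the 6, and their part in these gaps was not tested.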

How the results depend on the processing

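The 68 alternatives of the sums moved no median by more than the spread between tumors (1 SD). This is a wide bar: the SD of the sum of all members was 3272 CPM. The median over nuclear protein-coding genes, 14352 CPM, thus counted as unmoved from 11357 CPM. Leaving out a tumor can move a median only to one of its middle values, so that this part could not show a larger shift. With a tumor left out, the median of all members lay between 11117 and 11597 CPM, against 11357 CPM with all 6, and under the other scalings tumor 1 stayed the highest and tumor 2 the lowest, with a range of 1.90-fold to 2.12-fold, against 2.26-fold in CPM. Members highest in tumor 1 numbered 43 to 47 under the other scalings and without a filter, and members with a tumor past Dixon's value 25 to 31, against 45 and 28. Without tumor 1, an alternative added after the data were seen, the latter fell to 2 members, while 51 members, against 47, were lowest in tumor 2. No member was called along the score by edgeR or DESeq2 in any of the 14 alternatives (0 called). In these tests 0 to 2 members had an unadjusted p under 0.05, against 76 to 1086 of all genes tested. Among all genes, DESeq2 called 15, edgeR without a filter 10 and edgeR without tumor 1 2. Divided by exon length, 5 paralog shares moved by more than the spread between tumors, with the order within each family kept. Their medians became 93.0% for Atp5g3, 6.25% for Atp5g1, 77.6% for Cox7a2, 16.6% for Cox7a2l and 6.17% for Cox7a1. Counts of 3′ ends are not proportional to transcript length, so these shares show only how the annotated length enters. Leaving out a tumor moved none of the paralog shares. No paired analysis was possible because the 6 tumors form a single group. Limits are the 6 tumors of 1 group, the library of tumor 1, 3′ ends shared with pseudogenes (5 members with over 50% of windows) and an unknown strand setting.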
